A study of Homo sapiens with 10 samples.

Results

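Transcripts of 9 receptors and ligands of cytokine and growth factor signalling were followed in 10 RNA sequencing libraries of SH-SY5Y cells: CXCR4, ACKR3, CXCL12, IL13RA1, IL13RA2, IL4R, TNFRSF1A, HGF and MET. They were taken by symbol from a deposited table of 58174 genes. The set was put together around genes whose levels in N352S cells were far from those in wild-type cells, so the values of that contrast chose it. They are given here as a description with no test, and only the knockdown, made in other libraries, was tested for these genes.

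SH-SY5Y is an established human neuroblastoma line with neuron-like features, and TDP-43, encoded by TARDBP, is a nuclear RNA-binding protein lost from the nucleus in amyotrophic lateral sclerosis. In the siRNA experiment, cells received 50 nM of an siRNA pool against TDP-43 (siTDP-43, 3 libraries) or of a control pool (siControl, 3 libraries), again after 24 hours, and were taken at 96 hours. In the genotype experiment, 2 libraries of genome-edited cells homozygous for the N352S substitution (N352S) stood beside 2 of cells whose TDP-43 was wild type. The labels call libraries of a group biological replicates but do not name separate cultures, state how many edited clones were used or say whether the wild-type cells went through editing. The p-values therefore measure the spread between these libraries, and an effect of the substitution and a trait of the edited line cannot be told apart.

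CXCR4 is a G protein-coupled receptor that steers cell migration towards its chemokine CXCL12, and ACKR3 is an atypical receptor that binds and removes the same chemokine. IL-13 binds IL13RA1, which pairs with IL4R to signal through JAK kinases and STAT6, and IL13RA2, a high-affinity receptor with a short tail that is mostly known as a decoy. TNFRSF1A is the main receptor of tumour necrosis factor and feeds NF-kappaB and cell death pathways. HGF, a growth factor made mainly by mesenchymal cells, acts on the receptor tyrosine kinase MET.

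Promoter sequences are shown for CXCR4, TNFRSF1A and HGF, whose transcripts had large genotype differences and an entry in the RefSeq table (GRCh38.p14) that held 7 of the 9 genes (not ACKR3 or IL13RA2). Each stretch lies upstream of the RefSeq start and outside the annotated exons of its gene, and is written 5′ to 3′ on the gene's own, minus strand. It covers chr2:136118166-136118399 for CXCR4, chr12:6342115-6342326 for TNFRSF1A and chr7:81770199-81770290 for HGF, the last lying between alternative first exons.
CXCR4: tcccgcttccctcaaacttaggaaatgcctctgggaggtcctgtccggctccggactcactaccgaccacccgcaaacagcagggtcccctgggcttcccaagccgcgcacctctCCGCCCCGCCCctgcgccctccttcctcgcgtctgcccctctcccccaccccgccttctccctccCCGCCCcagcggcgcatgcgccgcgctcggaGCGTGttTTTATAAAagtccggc
TNFRSF1A: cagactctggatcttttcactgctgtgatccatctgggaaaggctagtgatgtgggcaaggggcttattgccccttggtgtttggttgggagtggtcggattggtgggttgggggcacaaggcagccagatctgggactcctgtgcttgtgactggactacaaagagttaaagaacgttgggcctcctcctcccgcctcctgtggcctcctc
HGF: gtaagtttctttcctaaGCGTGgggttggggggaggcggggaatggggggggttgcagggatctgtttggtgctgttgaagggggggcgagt

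Capitals mark matches, on either strand, to 8 motifs searched: the TATA box core TATAAA, the GC box GGGCGG, an NF-kappaB pattern of GGG and CC separated by any 5 bases, STAT patterns of TTC and GAA separated by 3 or by 4 bases, the hypoxia response cores ACGTG and GCGTG, and the AP-1 site TGACTCA. The CXCR4 stretch held TATAAA, overlapped by its reverse complement, 3 GC boxes and GCGTG. It belongs to the first of several RefSeq starts of CXCR4. The HGF stretch held GCGTG, and the TNFRSF1A stretch held none of the 8. Of 35116 RefSeq windows of 300 bases, 11.5% held TATAAA, 45% a GC box, 36.5% GCGTG, 21.4% ACGTG and 58.7% the NF-kappaB pattern. The other shares were 7.66% and 6.44% for the STAT patterns and 4.95% for AP-1. GC content of the whole window was 66.7% for CXCR4, 55.7% for TNFRSF1A and 51% for HGF, against a median of 58.7% over all windows. These letters are a description of the reference and say nothing of binding in these cells.

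Values are TPM (an abundance per transcript length, scaled to the same total in each library), and differences are on the log2(TPM + 1) scale, which understates changes of low genes. The test took in the 17118 genes that averaged 1 TPM or more over all 10 libraries. A gene was called at a Benjamini-Hochberg adjusted p under 0.05 in limma. Of the 9 genes, 6 passed this filter, and each of these also averaged at least 1 TPM over the 6 siRNA libraries alone. ACKR3, IL4R and MET did not pass and stayed at or below 0.24 TPM in every library. Values after ± are SDs over libraries of a group (n = 3 in siRNA groups, n = 2 in genotype groups), and SEs after log2 differences.

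TARDBP itself fell from 255.8 ± 0.43 TPM in siControl to 64.35 ± 2.91 in siTDP-43 (log2 -1.98 ± 0.04, limma adjusted p = 3.8e-08), and from 200.5 ± 6.97 TPM in wild-type to 122.6 ± 0.33 in N352S libraries (log2 -0.70 ± 0.05, adjusted p = 1.9e-05). All 12 noradrenergic neuroblast markers listed for the line were measured, with a summed level of 4826 to 6189 TPM across the 10 libraries. Across genes, r between libraries of the same group was 0.977 to 0.99. Mitochondrially encoded genes took 12% to 16.2% of TPM, with 13.3 ± 1.19% in siControl and 15.8 ± 0.34% in siTDP-43.

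**Figure D1:**
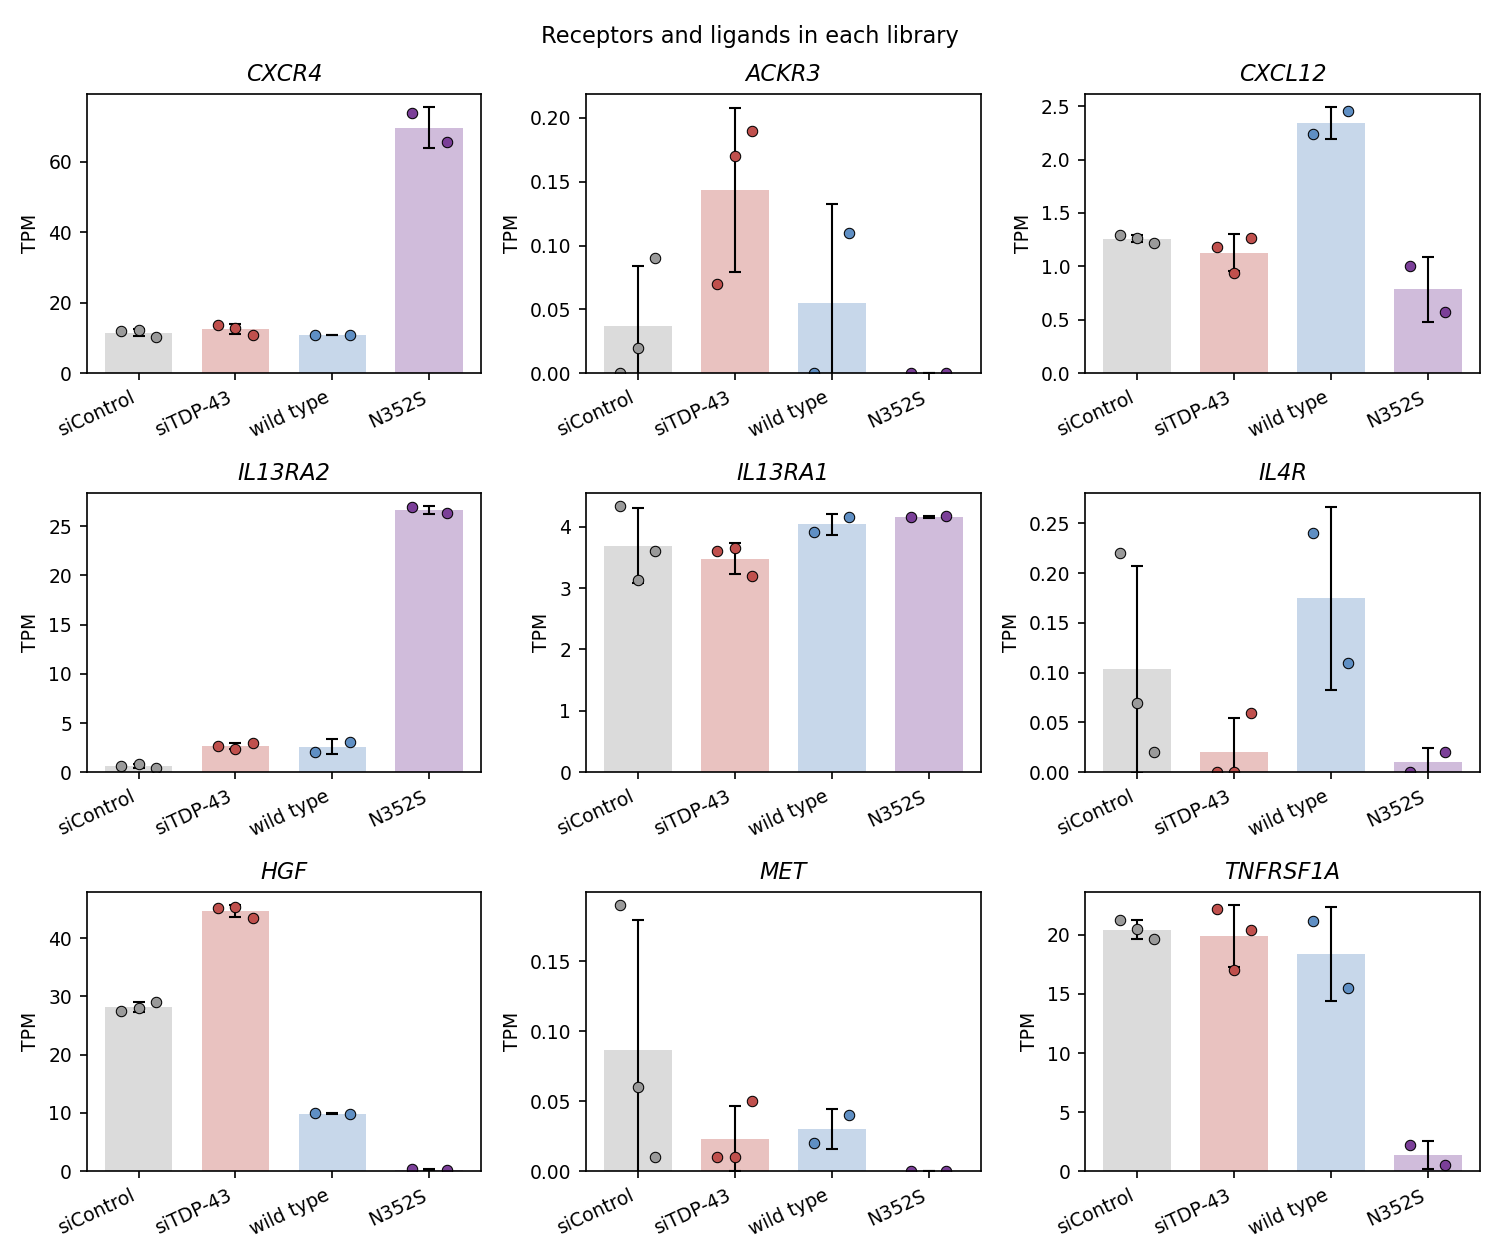
Points give the TPM of the 9 genes in single libraries (3 siControl, 3 siTDP-43, 2 wild-type, 2 N352S), bars the mean of a group and error bars its SD; each panel has its own linear axis from 0. CXCR4 (65.51 to 73.83 TPM) and IL13RA2 (26.35 to 26.93) stand far above the other groups in N352S cells, HGF and TNFRSF1A far below, and ACKR3, IL4R and MET stay near 0 throughout.

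Among the chemokine genes, CXCR4 (ENSG00000121966, chromosome 2, 136114349 to 136118165, minus strand) was several times higher in N352S cells and did not pass the test in the knockdown. It was measured at 73.83 and 65.51 TPM in the N352S libraries and at 10.83 and 10.94 TPM in the wild-type libraries. The 6.4-fold ratio of means corresponds to a log2 difference of 2.57. The siControl libraries held 11.94, 12.14 and 10.32 TPM and the siTDP-43 libraries 13.77, 12.9 and 10.85 TPM. The 8 libraries without the substitution thus shared a range of 10.32 to 13.77 TPM, and only the N352S pair lay outside it. The knockdown difference was 0.11 ± 0.09 (adjusted p = 0.42).

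CXCL12 (ENSG00000107562, chromosome 10, 44370165 to 44386493, minus strand), the ligand of CXCR4, was a low transcript with the opposite genotype difference. It stood at 2.24 and 2.45 TPM in wild-type and at 1 and 0.57 TPM in N352S libraries, 33.5% of the wild-type mean. The siRNA libraries held 1.29, 1.27 and 1.22 TPM in siControl and 1.18, 0.94 and 1.27 TPM in siTDP-43. These groups overlap (log2 -0.09 ± 0.14, adjusted p = 0.68). All 6 libraries were below both wild-type libraries, and siTDP-43 replicate 2 was below the higher N352S library. ACKR3 (ENSG00000144476, chromosome 2, 236567787 to 236582358, plus strand) was listed at 0 in both N352S libraries and reached at most 0.19 TPM, in siTDP-43 replicate 3. CXCR4 transcripts were therefore measured without an appreciable level of ACKR3 in any group, at levels above those of CXCL12 in every library.

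Other chemokines and their receptors were mostly silent: of 31 listed genes 26 were below the filter and 9 of these were listed at 0 in all 10 libraries. None of the 5 tested genes was called in either comparison by limma, and at an unadjusted p under 0.05 none differed in the knockdown and 1 was higher in N352S cells. In N352S cells 1 was called higher with a pseudocount of 5 or when only the genotype libraries were fitted. CCL2, the monocyte chemokine, was singled out after its values were seen: it averaged 0.21 TPM in siControl and 0.41 in siTDP-43, but 47.96 in wild-type and 62.15 TPM in N352S libraries. CCL2 was thus high in both groups of the genotype experiment and low in both groups of the siRNA experiment, and its N352S difference did not pass the test (log2 0.37, adjusted p = 0.12). MIF, an abundant cytokine that also binds CXCR4, was near 1055 to 1237 TPM in all group means.

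Among 19 tested genes of the G protein and arrestin relay below CXCR4 and ACKR3, 1 rose and 6 fell in the knockdown (median log2 -0.05), where 6.19% of all tested genes rose and 19.8% fell (median -0.08). In N352S cells 2 rose and 5 fell (median -0.07), where 8.28% of all tested genes rose and 11.9% fell (median -0.03). GRK5, a kinase that phosphorylates active receptors, rose from 5.15 to 11.62 TPM in N352S cells (log2 1.03 ± 0.09, adjusted p = 1.0e-04). It also accounted for the single rise in the knockdown (0.28), a call lost with the replicate number as a block (0 rises) and without any siRNA library other than siControl replicate 3. GNB1, a G protein beta subunit, fell from 474.9 to 246.6 TPM in N352S cells (log2 -0.94, adjusted p = 3.3e-06). In the knockdown GNB1 fell from 453.5 to 404.8 TPM (-0.16, limma adjusted p = 0.014). It lies between the end of the short arm of chromosome 1 and TARDBP. DOCK1, a guanine nucleotide exchange factor for RAC1, fell from 21.01 to 10.61 TPM in the knockdown (log2 -0.92, adjusted p = 1.9e-05), as did RAC1 (-0.26). DOCK1 also fell in N352S cells (18.76 to 13.61 TPM, -0.44, limma adjusted p = 0.0028). RGS4, which shortens G protein signals, fell in both comparisons (-0.29 and -0.44). Without wild type replicate 80 or N352S replicate 81, 1 relay gene was higher in N352S cells.

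IL13RA2 (ENSG00000123496, chromosome X, 115003975 to 115019977, minus strand) was higher in both TDP-43 perturbations. In the siRNA experiment it stood at 0.64, 0.88 and 0.48 TPM in siControl and at 2.66, 2.4 and 2.98 TPM in siTDP-43 libraries. The groups did not overlap, and the transcript rose 4.02-fold by group means, from 0.67 ± 0.20 to 2.68 ± 0.29 TPM (log2 1.15 ± 0.14, limma adjusted p = 5.4e-04). This was the 66th largest positive knockdown difference among the tested genes. In the genotype experiment it stood at 2.07 and 3.12 TPM in wild-type and at 26.93 and 26.35 TPM in N352S libraries, a 10.3-fold ratio of means. The wild-type mean of 2.6 TPM lay near that of siTDP-43 cells, in a separate experiment. The call in the knockdown was kept in each of 22 alternatives, while the size of this low transcript's change moved with the pseudocount, to 1.89 at 0.1 and 0.44 at 5.

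No such difference was seen for the signalling receptor. IL13RA1 (ENSG00000131724, chromosome X, 118727572 to 118794539, plus strand) was measured at 3.13 to 4.34 TPM in siControl, 3.19 to 3.65 in siTDP-43, 3.92 and 4.16 in wild-type and 4.15 and 4.17 TPM in N352S libraries. The siRNA groups overlap (log2 -0.06 ± 0.11, adjusted p = 0.73), and the genotype means differed by 0.03 on the log2 scale. IL13RA1 thus exceeded IL13RA2 in every siControl, siTDP-43 and wild-type library, and IL13RA2 exceeded IL13RA1 in both N352S libraries. IL4R (ENSG00000077238, chromosome 16, 27313668 to 27364778, plus strand), which completes the signalling receptor, held 0.22, 0.07 and 0.02 TPM in siControl, 0, 0 and 0.06 in siTDP-43, 0.24 and 0.11 in wild-type and 0 and 0.02 TPM in N352S libraries. At these levels no group difference can be read.

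Transcripts of the ligands were near 0, with no group mean of IL4 above 0.28 TPM or of IL13 above 0.13 TPM, genes named here for their role. STAT6 was below the filter, at 0.865 TPM or less in any group mean. Of 8 tested genes of the IL-4 and IL-13 relay, none rose and 2 fell in the knockdown (median log2 -0.07), beside 6.19% and 19.8% of all tested genes. At an unadjusted p under 0.05 in limma 1 was higher in the knockdown. In N352S cells 2 rose and 1 fell (median 0.06), beside 8.28% and 11.9% of all tested genes. Under median-of-ratios scaling or quantile normalization 2 rose and none fell in the knockdown, and without siControl replicate 3, 1 rose and none fell. JAK1, the kinase bound to IL4R and IL13RA1 complexes, rose from 47.84 to 79.18 TPM in N352S cells (log2 0.71 ± 0.07, adjusted p = 2.5e-04). In the knockdown it fell from 55.82 to 47.3 TPM (-0.24, adjusted p = 0.021; 0.063 with the replicate number as a block). STAT3 rose in N352S cells (27.62 to 36.23 TPM, 0.38), and the phosphatase PTPN11 fell in both comparisons (-0.16 and -0.24). The STAT3 call was lost without wild type replicate 79 (adjusted p = 0.06), and that of PTPN11 in N352S cells without wild type replicate 80 or N352S replicate 82 (0.071 and 0.064) or with only the genotype libraries fitted (0.078). Under median-of-ratios scaling the knockdown values had adjusted p = 0.097 for JAK1 and 0.17 for PTPN11. Neither knockdown call held without siControl replicate 2, siControl replicate 3 or siTDP-43 replicate 3 (adjusted p = 0.057 to 0.07), and PTPN11 was lost also without siTDP-43 replicate 1 or 2 (0.07 and 0.057).

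**Figure D2:**
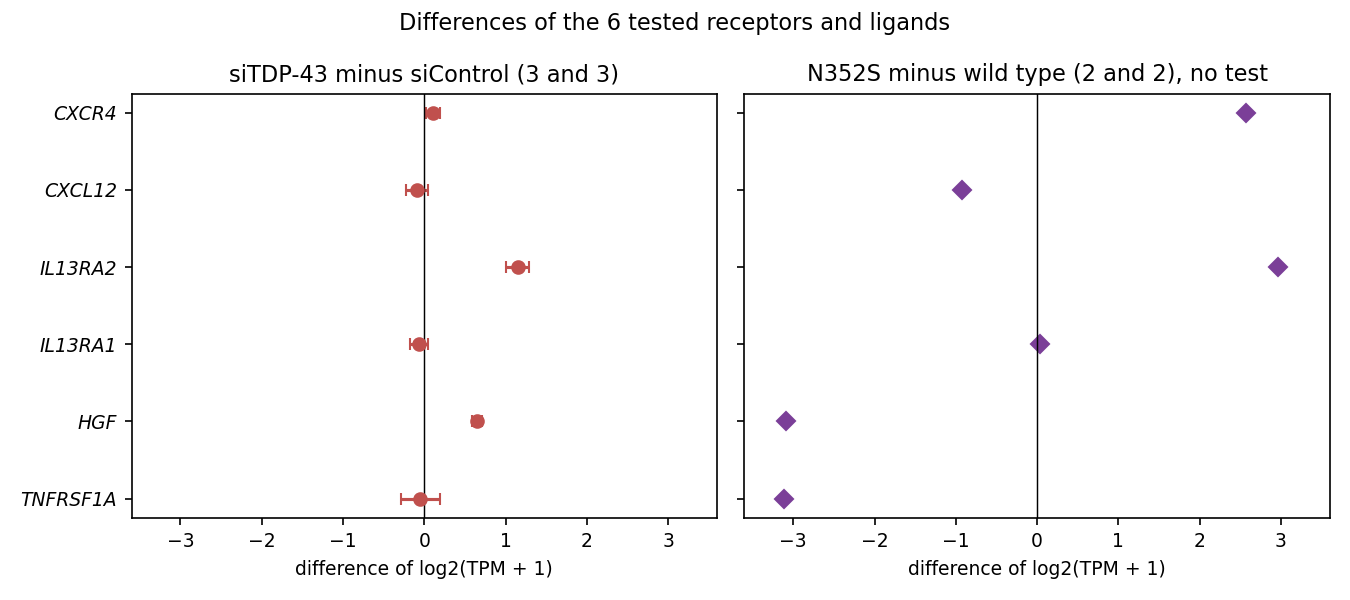
Differences of log2(TPM + 1) for the 6 tested genes: siTDP-43 minus siControl with SEs of the limma fit (left, 3 libraries each) and N352S minus wild type with no test (right, 2 libraries each). In the knockdown IL13RA2 (1.15) and HGF (0.65) lie above 0 and the other 4 within 0.11 of it, while HGF (-3.09) and TNFRSF1A (-3.11) are the lowest points on the right.

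TNFRSF1A (ENSG00000067182, chromosome 12, 6328757 to 6342114, minus strand) was far lower in N352S than in wild-type cells and did not pass the test in the knockdown. Wild-type libraries held 21.15 and 15.54 TPM, and N352S libraries 2.22 and 0.52 TPM. The mean in N352S cells was 7.47% of the wild-type mean (log2 -3.11), and the N352S libraries differed from each other by more than their mean (1.37 ± 1.2 TPM). Without N352S replicate 82 the difference was -2.57, and without N352S replicate 81 it was -3.65. The siRNA libraries held 21.24, 20.45 and 19.64 TPM in siControl and 22.22, 17.01 and 20.43 TPM in siTDP-43. These ranges overlap (log2 -0.05 ± 0.24, adjusted p = 0.91), and the 8 libraries without the substitution all lay between 15.54 and 22.22 TPM.

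The second TNF receptor, TNFRSF1B, and the ligands TNF and LTA, named for their role, stayed at or below 0.29, 0.17 and 0.13 TPM in all group means. Of 25 tested genes of the TNF receptor relay, none rose and 6 fell in the knockdown (24%, beside 19.8% of all tested genes; median log2 -0.08). At an unadjusted p under 0.05 in limma there were 0 higher and 7 lower, a threshold to which the share of all tested genes does not apply. In N352S cells 3 rose and 2 fell (median 0.06), beside 8.28% and 11.9% of all tested genes. There 5 rose under median-of-ratios scaling or quantile normalization. TRAF5, an adaptor of TNF receptors, fell in the knockdown (34.74 to 23.61 TPM, -0.54, adjusted p = 1.8e-04) and rose in N352S cells (0.31, adjusted p = 0.009). The deubiquitinase CYLD (-0.36) and the adaptor TAB3 (-0.32) fell in the knockdown, and the NF-kappaB subunit RELA (-0.19) fell in N352S cells. The kinase RIPK1 fell in both, in the knockdown from 16.22 to 13.75 TPM (-0.22, limma adjusted p = 0.019) and in N352S cells by -0.40. Its knockdown call was lost under median-of-ratios scaling and under quantile normalization. Fewer relay genes fell in the knockdown under median-of-ratios scaling or quantile normalization (2 each) and without siControl replicate 3 or any siTDP-43 library (3 each). TAB3 was not called without siTDP-43 replicate 1 or 2 (adjusted p = 0.053 and 0.051), or under those scalings (0.057 and 0.076).

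In N352S cells, the calls of this relay other than that of RIPK1 rested on single libraries. RIPK1 had a log2 difference of -0.46 to -0.35 when each library was left out. Without wild type replicate 79 or N352S replicate 81 no relay gene rose, and without wild type replicate 80 or N352S replicate 82 only 1 did. Without wild type replicate 79 or N352S replicate 82 only 1 fell. TRAF5 lost its N352S call without wild type replicate 79 (adjusted p = 0.072) or N352S replicate 81 (0.056), and RELA without wild type replicate 79 (0.1) or N352S replicate 82 (0.063). RIPK1, TRAF5 and RELA were not called when only the genotype libraries were fitted (adjusted p = 0.053, 0.068 and 0.092).

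In the knockdown 2 of 12 tested NF-kappaB and TNF response genes rose and 3 fell (median log2 -0.07), where 6.19% of all tested genes rose and 19.8% fell. In N352S cells 4 rose and none fell (median 0.19, also 0 lower at an unadjusted p under 0.05 in limma). Over all tested genes 8.28% rose and 11.9% fell there. One of the 4, TNFAIP6, a secreted hyaluronan-binding protein induced by TNF, averaged 14.33 TPM in N352S libraries against 0.655 in wild-type ones, with 0.22 TPM after siTDP-43 and 0.29 after siControl. It passed the filter on low values only through the N352S libraries and so had to differ, and its call adds no support to the count. JUNB rose in N352S cells (33.71 to 42.84 TPM, 0.34) and fell in the knockdown (23.39 to 17.01 TPM, -0.44, adjusted p = 1.3e-04). The cell cycle gene CCND1 rose in the knockdown (0.17, limma adjusted p = 0.033) and in N352S cells (0.30). The remaining rise there, named to complete the 4, was NFKBIA, the NF-kappaB inhibitor (0.26), with a limma adjusted p that rounds to 0.05. In the knockdown TNIP1 fell (-0.37) and NFKBIA rose (0.24). Without N352S replicate 81 only 2 of the 4 rises were called, and CCND1 had adjusted p = 0.055. Without siControl replicate 2 or siTDP-43 replicate 2 only 1 gene fell in the knockdown, and TNIP1 had adjusted p = 0.051 and 0.057. NFKBIA lost its knockdown call without siControl replicate 3, siTDP-43 replicate 1 or siTDP-43 replicate 3 (limma adjusted p = 0.069, 0.074 and 0.064). In the knockdown, 1 or no gene rose without any siRNA library other than siTDP-43 replicate 2.

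Of 10 tested relatives in the TNF receptor superfamily, 1 rose and 4 fell in the knockdown, and 2 rose and 3 fell in N352S cells (medians -0.21 and 0.06). Over all tested genes 6.19% rose and 19.8% fell in the knockdown, and 8.28% rose and 11.9% fell in N352S cells. TNFRSF12A, the receptor of the cytokine TWEAK, rose from 7.44 to 17.53 TPM in N352S cells (log2 1.15 ± 0.14, adjusted p = 6.1e-04). NGFR, the low-affinity neurotrophin receptor, fell in both comparisons (-0.69 and -0.99). TNFRSF25 fell from 35.88 to 21.04 TPM in N352S cells (-0.75, adjusted p = 3.8e-04) and lies between the end of the short arm of chromosome 1 and TARDBP. TNFRSF10B, a death receptor of TRAIL, fell in the knockdown (23.86 to 15.11 TPM, -0.63). It rose in N352S cells (30.55 to 44.67 TPM, 0.53, limma adjusted p = 0.024). TNFRSF21 fell in both comparisons (-0.34 and -0.29). Without any of the 4 genotype libraries, 1 of these relatives rose in N352S cells.

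HGF (ENSG00000019991, chromosome 7, 81699008 to 81770438, minus strand) differed in opposite directions in the comparisons. It rose in the knockdown, from 27.51, 27.93 and 29.12 TPM in siControl to 45.1, 45.41 and 43.41 TPM in siTDP-43 libraries. The groups did not overlap, and the rise was 1.58-fold by group means (log2 0.65 ± 0.06, limma adjusted p = 1.9e-04). It was kept in each of 22 alternatives (log2 0.58 to 0.73). In the genotype experiment HGF stood at 9.96 and 9.79 TPM in wild-type and at 0.37 and 0.19 TPM in N352S libraries, 2.84% of the wild-type mean (log2 -3.09). The order of group means was siTDP-43 (44.64 TPM), siControl (28.19), wild type (9.88) and N352S (0.28), with no overlap between neighbours. The wild-type and siControl libraries belong to separate experiments, and that difference cannot be told apart from editing, culture or library preparation.

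MET (ENSG00000105976, chromosome 7, 116672390 to 116798386, plus strand), the only known high-affinity receptor of HGF, was close to 0 in all cells. It held 0.19, 0.06 and 0.01 TPM in siControl, 0.01, 0.01 and 0.05 in siTDP-43, 0.02 and 0.04 in wild-type, and 0 in both N352S libraries. HGF was thus measured at up to 45.41 TPM in cells whose MET level never exceeded 0.19 TPM. Levels of proteases that can activate HGF differed. HGFAC, the HGF activator protease, averaged 0.875 to 1.92 TPM over groups and was not called, and the proteases ST14 and HPN did not exceed 0.07 TPM in any group mean, all 3 named for their role. PLAT, a plasminogen activator, averaged 21.8 TPM in wild-type and 18.99 in N352S libraries, with 10.22 TPM after siTDP-43 and 7.55 after siControl. Of the inhibitors of these proteases, SPINT1 averaged 0.76 to 3.53 TPM over groups and SPINT2 0.25 to 1.035 TPM.

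Of 28 tested genes of HGF activation and the MET relay, 1 rose and 6 fell in the knockdown (median log2 -0.02). These were 3.57% and 21.4% of the list, beside 6.19% and 19.8% of all tested genes. In N352S cells 4 rose and 6 fell (14.3% and 21.4%, median -0.08), beside 8.28% and 11.9%. SPRY2, a feedback inhibitor of receptor tyrosine kinase signals, fell in the knockdown (30.97 to 24.97 TPM, -0.30) and rose in N352S cells (33.41 to 41.99 TPM, 0.32). The exchange factor SOS1 (-0.41) fell in the knockdown. In N352S cells the phosphoinositide 3-kinase subunit PIK3R1 fell from 37.38 to 22.82 TPM (-0.70, adjusted p = 9.4e-04), as did the adaptor CRK (-0.32). CRK also fell in the knockdown (-0.20, limma adjusted p = 0.01). The single rise in the knockdown (PLAT, 0.38, named because it stood alone) was not called without siControl replicate 1, siControl replicate 3, siTDP-43 replicate 2 or siTDP-43 replicate 3, and under median-of-ratios scaling 4 rose and 3 fell. Without wild type replicate 79 only 1 gene rose in N352S cells, and without any other genotype library or siTDP-43 replicate 1 only 2 did.

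**Figure D3:**
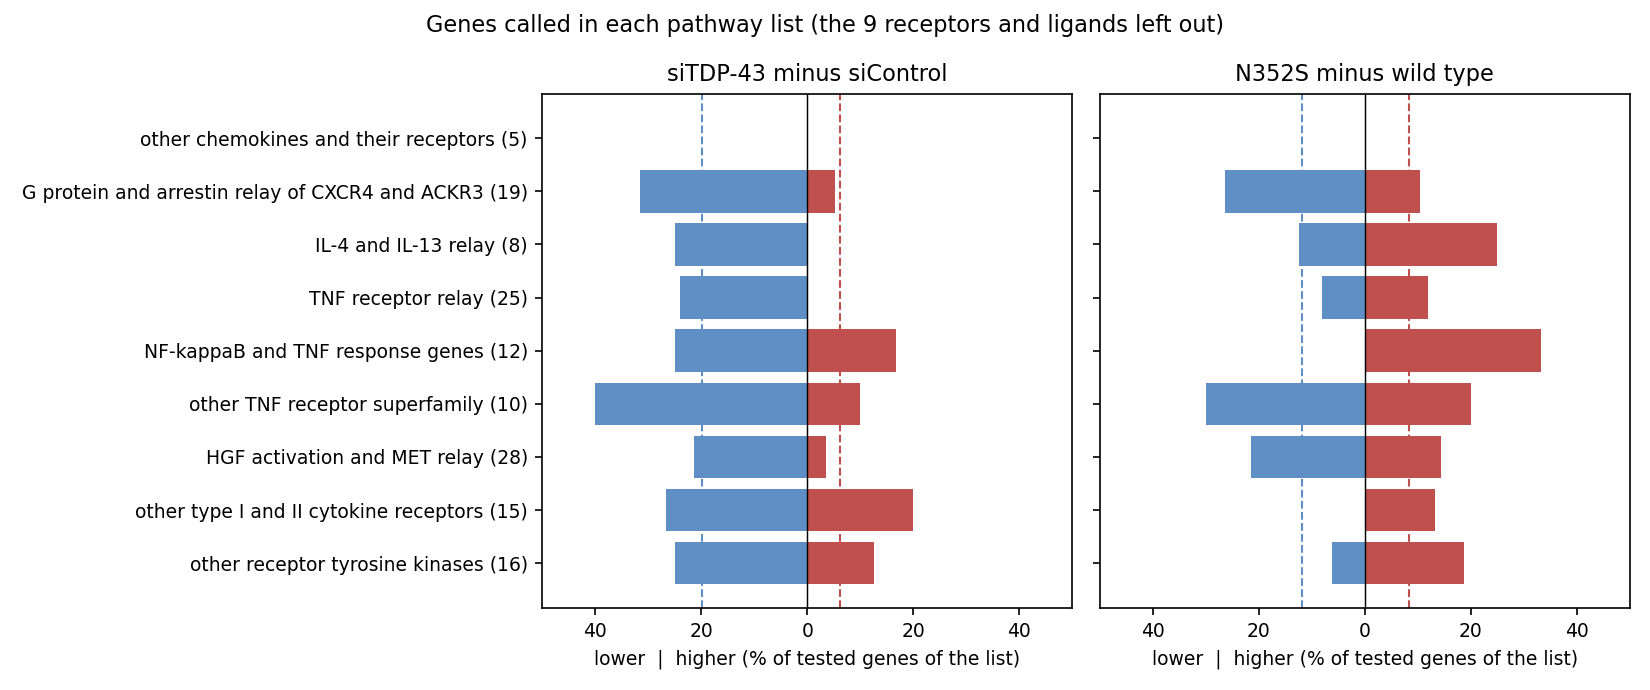
Percent of tested genes of each pathway list (number tested in parentheses) called, with higher genes in red to the right of 0 and lower genes in blue to the left, for the knockdown at left and N352S cells at right, with dashed lines at the shares of all 17118 tested genes. In the knockdown 6.19% of all tested genes were higher and 19.8% lower, and 6 of 25 TNF receptor relay genes were lower. In N352S cells 8.28% of all tested genes were higher and 11.9% lower. There 4 of 12 NF-kappaB and TNF response genes were higher, among them TNFAIP6, which was tested only because of its N352S level.

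Across the 9 genes, 7 had N352S libraries that did not overlap the wild-type libraries, a count fixed in part by how the set was chosen. These 7 include IL4R and MET, which were below the filter and near 0, so the count is not like the shares of tested genes. Of all tested genes, 60.1% did not overlap and 20.2% passed the test. In the knockdown 2 of 9 did not overlap, both higher and both among the 6 genes tested. Of all tested genes 43.6% did not overlap (11.9% higher and 31.7% lower). The same 2 passed the test, as did 26% of all tested genes. Among tested genes IL13RA2 had the 9th largest positive and CXCR4 the 21st largest positive N352S difference, and TNFRSF1A and HGF the 9th and 11th most negative. Of these 4, IL13RA2 and HGF were called in the knockdown, and only IL13RA2 in the direction of its genotype difference. Of all knockdown calls 76.2% were lower, which became 51.6% with median-of-ratios scaling and 51.1% with quantile normalization, and of N352S calls 58.9% were lower, against 47.2% and 53.2%. The calls of IL13RA2 and HGF and their direction were the same under both.

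The genes lie on 6 chromosomes, and none lies on chromosome 1, which carries TARDBP. No gene with a measured level overlaps them on the other strand: an antisense gene over the start of IL4R was listed at 0 in all group means. Nearest tested protein-coding genes were compared as a check of regional change, chosen by position. DARS (115.7 and 119.5 TPM), 128 kb from CXCR4, and LRCH2 (6.51 and 6.58 TPM), 90.6 kb from IL13RA2, were not called between wild-type and N352S cells. CD9, a tetraspanin 90.5 kb from TNFRSF1A, fell from 64.71 to 43.61 TPM (log2 -0.56), while the 35 tested genes within 1 Mb of TNFRSF1A had a median of -0.02. On either side of HGF, CACNA2D1 fell from 56.64 to 42.25 TPM (-0.42) and SEMA3C, a secreted axon guidance factor, rose from 31.4 to 110.2 TPM (1.78 ± 0.09, adjusted p = 3.0e-06). Both fell in the knockdown (-0.57 and -0.82), where HGF rose. ZCCHC12, 29.3 kb from IL13RA1, fell from 10.79 to 4.835 TPM in N352S cells (-1.01, limma adjusted p = 2.5e-04), where IL13RA1 differed by 0.03. AGAP1 beside ACKR3 rose there (0.42), and TES and CAPZA2 beside MET fell (-0.18 and -0.19). The remaining nearest genes were not called in N352S cells.

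The transcripts most like each gene were sought among 10799 protein-coding genes averaging 5 TPM or more, by Pearson's r of log2(TPM + 1) over the 10 libraries. Because the libraries form 4 groups, r mainly compares group means. CXCR4 was followed most closely by ABCB1 (r = 0.986), the multidrug transporter, then FBXL7 (0.984) and RORB (0.979). For IL13RA2 these were PDIA5 (0.989), RPL17 (0.984) and the collagen gene COL4A1 (0.983). TNFRSF1A was followed by the matrix proteoglycan VCAN (0.993), KAT6B (0.986) and THSD7A (0.984). HGF was followed by INSM2 (0.996), CCDC80 (0.994) and MAB21L2 (0.993), which averaged 154.3, 25.72 and 139.5 TPM in siTDP-43 and 27.01, 1.49 and 1.68 TPM in N352S cells. The low CXCL12 resembled C20orf194 (0.951), CASZ1 (0.951) and CLSTN2 (0.947). IL13RA1 had no close match, with SVBP (0.869), RP11-159D12.5 (0.859) and CISD3 (0.853) nearest.

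Markers of other cells were compared because leukocytes express CXCR4 and cytokine receptors and mesenchymal cells express HGF. In bulk RNA, fewer cells of a type and less RNA per cell cannot be told apart. Of 11 leukocyte markers, 2 reached a mean of 1 TPM in each group. Their sum was 3.67 to 5.7 TPM in siRNA and wild-type libraries and 9.17 to 9.39 in N352S libraries, where LCP1 rose from 2.68 to 7.31 TPM. CD3E and ITGAM were listed at 0 in all 10 libraries, and no group mean of PTPRC, the common leukocyte antigen, exceeded 0.05 TPM. Of 13 mesenchymal markers 11 were tested, and 4 rose and 3 fell in N352S cells (median log2 -0.05), where 8.28% of all tested genes rose and 11.9% fell. Their sum was 573 to 606 TPM in wild-type and 969 to 1009 in N352S libraries, and 688 to 762 in siControl and 695 to 720 in siTDP-43. VIM alone, at 361.5 TPM in wild-type and 687.5 in N352S cells, made up most of the sum and of its rise. CD44, 1 of the 3 that fell, went from 3.13 to 0.87 TPM (log2 -1.14). Markers with a mean of at least 1 TPM numbered 12 in wild-type and 9 in N352S cells. PRRX1 was listed at 0 in all siControl libraries and did not exceed 0.22 TPM in any group mean. Of 7 Schwann cell markers 4 were tested. Of these, 1 rose in N352S cells (sum of the 7 at 54.5 to 62 TPM in wild-type, 66.7 to 70.3 in N352S libraries). In the knockdown 2 fell (sum 58.4 to 58.9 in siControl and 32.8 to 35.2 in siTDP-43), where 19.8% of all tested genes fell. FABP7 was listed at 0 in all libraries. The part of these markers' differences in the results above was not tested.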

How the data were processed

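Per the labels' protocols, Trizol was used for RNA extraction and an Illumina TruSeq RNA kit for the libraries. The authors deposited TPM per gene with 2 decimals; the submitters' processing notes name STAR, RSEM and hg38. Versions, annotation and strand setting: not given in the sources used here. TPM summed to 999999 to 1000000 per library and keep no depth, so depth is unknown and no counting interval can be given. Gene positions came from GENCODE release 29 on the same assembly, which held 57836 of 58174 identifiers (99.4%).

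Means of all 4 groups were fitted to log2(TPM + 1) by limma (version 3.58.1, run in R 4.3.3), letting the prior variance follow mean expression, on 6 residual degrees of freedom, which assumes that genotype pairs vary like siRNA libraries. Genes averaging 1 TPM or more were tested, and the fit was tested on simulated data. Shares of all tested genes called are at adjusted p under 0.05. No such share is given for the counts at an unadjusted p under 0.05. The genes described, the 9 pathway lists and the 4 marker lists were chosen with earlier results of these data known. From each pathway list, up to 3 called genes with the smallest adjusted p per comparison are named (1 of them is not reported here); other listed genes were named for their role or after their values were seen, as stated, and marker and neighbouring genes by list or position. Deviations from group means correlated at 0.336, 0.137 and 0.198 between siRNA libraries of the same number in the titles, each over 0.1. A fit with the number as a block was therefore run as an alternative. The main fit had no block, so knockdown results given without mention of the block are unpaired. Genotype libraries share no numbers. Alternatives were pseudocounts of 0.1 and 5, no filter or one at 5 TPM, quantile normalization, median-of-ratios scaling, leaving out genes of the mitochondrial genome, fitting the compared groups alone, eBayes without a trend or robust, the block, adjusted p under 0.01, and leaving out each library. Figures were drawn with matplotlib 3.10.9.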

Additional observations from a re-analysis of the deposited data

How the results depend on the processing

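The rises of IL13RA2 and HGF in the knockdown kept their direction and call in all 22 alternatives, and no other of the 9 genes was called in any of them. Genotype differences of low transcripts moved with the pseudocount: at 0.1 and at 5 the log2 difference was -4.76 and -1.49 for HGF, -3.93 and -1.88 for TNFRSF1A, 3.34 and 2.06 for IL13RA2, 2.66 and 2.23 for CXCR4, and -1.51 and -0.35 for CXCL12. From the pathway lists, 46 gene and comparison pairs were chosen by smallest adjusted p. Of these, 32 kept their call in every alternative in which the gene was tested. They include TNFAIP6 in N352S cells, which passed the filter only through the N352S libraries. Calls given only because a gene was chosen in the other comparison are not in this count.

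Over all genes, 1059 rose and 3389 fell in the knockdown. These counts were 1947 and 2075 under median-of-ratios scaling, 1932 and 2015 under quantile normalization, and 490 and 1859 at adjusted p under 0.01. With the replicate number as a block, pairing the siRNA libraries, 908 rose and 2831 fell. The calls of JAK1 and GRK5 were among those that ended with the block. Leaving out each library in turn gave 664 to 1073 rises, the lowest without siTDP-43 replicate 3, and 2504 to 3438 falls.

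In N352S cells 1417 genes rose and 2033 fell, against 749 and 969 at adjusted p under 0.01, and 1105 fell when only the genotype libraries were fitted. Leaving out each library gave 815 to 1563 rises (815 without wild type replicate 79, 906 without N352S replicate 81). It gave 1009 to 2194 falls (1009 without wild type replicate 79, 1236 without wild type replicate 80, 1242 without N352S replicate 82). No paired analysis was possible for the genotype libraries because they share no replicate numbers. Depth is unknown, and with 2 or 3 libraries per group small differences may be missed.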

Other observations

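Beyond the pathways of the 9 genes, other type I and II cytokine receptors were called in small numbers. Of 15 tested, 3 rose and 4 fell in the knockdown (median log2 -0.04), where 6.19% of all tested genes rose and 19.8% fell. In N352S cells 2 rose and none fell (median 0.19), where 8.28% of all tested genes rose and 11.9% fell. At an unadjusted p under 0.05 in limma, 1 receptor was lower in N352S cells. IL11RA, the interleukin-11 receptor, rose from 53.54 to 90.26 TPM in the knockdown (log2 0.74 ± 0.07, limma adjusted p = 1.8e-04), while IL6ST, the shared gp130 subunit with which it signals, fell from 39.07 to 25.47 TPM (-0.60, adjusted p = 0.0014). The leptin receptor LEPR also fell (-0.40). CNTFR, the ciliary neurotrophic factor receptor, rose in the knockdown (0.18, limma adjusted p = 0.045). In N352S cells CNTFR rose as well (0.32), as did LIFR (0.52). CNTFR was not called without wild type replicate 80 or N352S replicate 81 (adjusted p = 0.076 and 0.061), and LIFR without any of the 4 genotype libraries (0.065 to 0.16), with only these libraries fitted (0.065) or with no filter on low values (0.07). Under median-of-ratios scaling 5 of these receptors rose in N352S cells, without wild type replicate 79 only 1 did and without wild type replicate 80 or N352S replicate 81 none did. Without wild type replicate 80 or siTDP-43 replicate 3, 1 receptor fell.

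Of 16 tested receptor tyrosine kinases other than MET, 2 rose (1 with the replicate number as a block) and 4 fell in the knockdown (median log2 -0.10). In N352S cells 3 rose and 1 fell (median 0.10). The shares of all tested genes that rose and fell were 6.19% and 19.8% in the knockdown, and 8.28% and 11.9% in N352S cells. The epidermal growth factor receptor EGFR fell in the knockdown, from 17.69 to 13.14 TPM (-0.40, adjusted p = 0.002), and rose in N352S cells, from 7.64 to 15.85 TPM (0.96, adjusted p = 5.1e-05). The platelet-derived growth factor receptor PDGFRA fell in the knockdown (32.07 to 22.8 TPM, -0.48) and rose in N352S cells (25.01 to 36.4 TPM, 0.52). The insulin receptor INSR fell in the knockdown (-0.81), and IGF1R rose in N352S cells (0.38), a call lost without wild type replicate 80 or N352S replicate 81 (adjusted p = 0.054 each) or with only the genotype libraries fitted (0.074). Leaving out wild type replicate 79 or 80, siControl replicate 2 or 3, or siTDP-43 replicate 2 or 3 left 1 rise in the knockdown, leaving out siTDP-43 replicate 1 left none, and without N352S replicate 81 there were 2 falls in N352S cells, and without any other genotype library 0.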
